A study of Mus musculus with 6 samples.

Results

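Peg3, Usp29, Zim1, H19, Igf2, Meg3, Rian, Dlk1, Mest and Grb10 are mouse imprinted genes, and their RNA was followed in satellite cells, which are the muscle stem cells, with and without Yy1. The 10 genes were chosen by known imprinting and by their FPKM values in these same libraries, and all 10 symbols were found among the 24067 symbols listed in both expression tables. They are described in 4 libraries of polyadenylated RNA. The first was made from Yy1 iKO cells after activation in culture for 36 h (ASC), and the second from wild-type (WT) cells in the same state. The third was made from iKO cells as freshly isolated satellite cells (FISC), and the last from WT cells freshly isolated. A list of YY1 chromatin immunoprecipitation peaks from activated cells labelled C57, called with 1 input library, is the only measure of binding. Most of its peaks have weak deposited q values. The labels do not say how or in which cells Yy1 was removed, or the age of the animals. Each group is 1 library, so no value below has a replicate check and no p-value is given.

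Imprinted genes are transcribed mainly from the chromosome inherited from one parent. The choice is marked in the germ line by DNA methylation at control regions, and one control region commonly governs a cluster of neighbouring genes. Many such genes act on growth, and several are abundant in embryonic muscle and in adult muscle stem cells. Peg3, also known as PW1, encodes a large zinc finger protein made from the paternal copy and is known from satellite cells and from interstitial cells of muscle. YY1 is a zinc finger transcription factor, and clustered YY1 motifs have been described in the control region of mouse Peg3.

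The 10 genes lie in 5 clusters, whose positions are given in build mm9 as deposited. On proximal chromosome 7 are Zim1 (6628154 to 6649143), Peg3 (6658671 to 6683130) and Usp29 (6683294 to 6929373). On distal chromosome 7 are H19 (149761435 to 149764051) and Igf2 (149836673 to 149856261). Chromosome 12 carries Dlk1 (110691033 to 110701546), Meg3 (110779206 to 110809939) and Rian (110842155 to 110899921). Mest lies on chromosome 6 (30683506 to 30846794) and Grb10 on chromosome 11 (11830502 to 11937423). The tables give a shared locus to some symbols, so that the interval listed for Mest also holds Copg2, that of Peg3 holds Peg3os, that of Igf2 holds Igf2os and that of Usp29 holds Zim3. Whether counting used strand is not stated, so reads of a gene and of its antisense partner cannot be told apart.

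Because Peg3 and Zim1 had the largest and a moderate difference within one cluster, and Rian a large one in another, the start-site windows of these genes are shown first. The windows come from RefSeq on GRCm38.p6 and run from 250 bases before to 50 bases after the start. Capitals mark CG dinucleotides, the sites at which imprints are methylated. The Peg3 window is chr7:6730370-6730669 on the minus strand, that of Zim1 is chr7:6696383-6696682 on the minus strand, and that of Rian is chr12:109603695-109603994 on the plus strand.
Peg3: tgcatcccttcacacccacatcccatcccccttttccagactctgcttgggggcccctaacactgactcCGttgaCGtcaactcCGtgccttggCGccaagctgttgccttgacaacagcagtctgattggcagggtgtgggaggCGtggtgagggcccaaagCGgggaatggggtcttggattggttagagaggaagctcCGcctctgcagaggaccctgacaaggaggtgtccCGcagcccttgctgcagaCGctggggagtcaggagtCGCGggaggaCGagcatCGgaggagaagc
Zim1: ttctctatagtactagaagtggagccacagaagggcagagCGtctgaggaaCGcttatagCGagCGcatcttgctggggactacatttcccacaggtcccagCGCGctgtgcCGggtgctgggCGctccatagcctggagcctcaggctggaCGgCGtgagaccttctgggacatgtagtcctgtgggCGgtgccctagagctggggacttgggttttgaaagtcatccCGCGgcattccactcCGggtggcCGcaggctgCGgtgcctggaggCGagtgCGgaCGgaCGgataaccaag
Rian: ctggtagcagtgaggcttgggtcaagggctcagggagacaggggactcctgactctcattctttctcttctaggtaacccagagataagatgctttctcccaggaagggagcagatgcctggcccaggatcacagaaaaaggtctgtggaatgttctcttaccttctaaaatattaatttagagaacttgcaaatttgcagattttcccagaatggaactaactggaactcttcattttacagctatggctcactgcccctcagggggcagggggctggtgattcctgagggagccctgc
The Peg3 window holds 13 CG dinucleotides, that of Zim1 holds 20 and that of Rian holds 0, where the median over 32851 windows was 7. The Peg3 and Usp29 windows overlap by 263 bases on opposite strands, which is the shared start region of this divergent pair.

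Letters of the YY1 motif were looked for on both strands of the 16 windows that matched 9 of the 10 genes (H19 was not matched). CCATNTT occurs in 2 of the 16 windows, both belonging to alternative starts, and in 16.1% of all windows. The stretch is shown for each, with the match in capitals.
Igf2: tgccccCCATTTTtgcatag
Grb10: gtttgcCCATTTTtcacccc
GCCATNTT, which contains the shorter motif, occurs in 0 of the 16 windows and in 6.05% of all windows. AAGATGGCG occurs in 0 of them and in 1.40% of all. A match is a run of letters and not a measured site. The windows are short stretches at the starts, so the control regions as a whole were not searched.

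In activated cells, the iKO library had lower levels than the WT library of all 8 members that reached 1 FPKM (fragments counted for a gene, divided by its length and by the library's total) in at least 1 of the 2, and 5 of them were at least 2-fold lower with 1 FPKM added to each value. Those 5 were Peg3, Rian, H19, Mest and Zim1, and 0 members were 2-fold higher. Over all 11215 genes at the same level, 8.26% were at least 2-fold lower and 8.74% were at least 2-fold higher in activated iKO cells. The set was chosen with these values in view, so its count is a description and nothing is read from it. The 8 members had a median log2 ratio of −1.26 and all genes one of −0.00. Usp29 and Dlk1 stayed under 1 FPKM in both activated libraries.

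**Figure D1:**
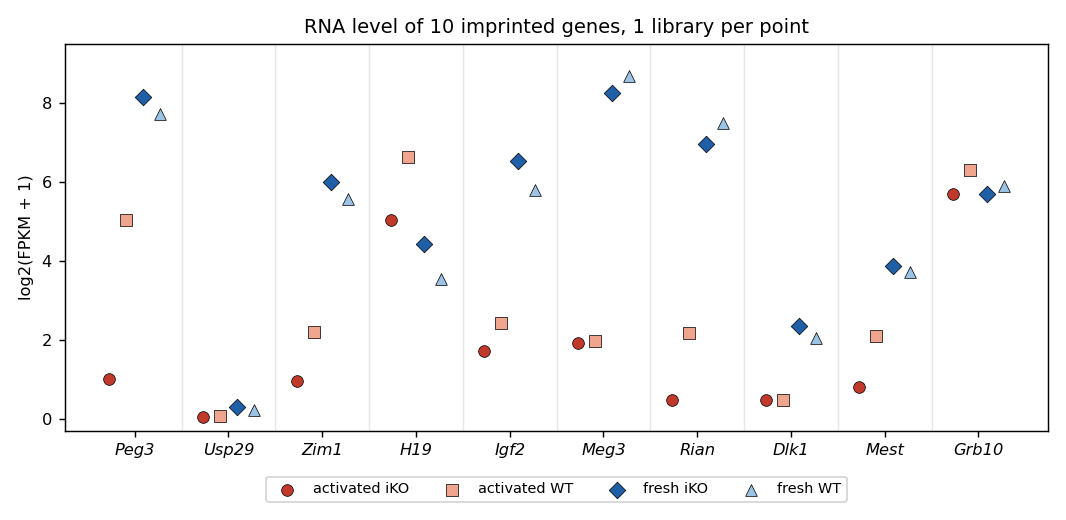
Level of each imprinted gene as log2(FPKM + 1), with 1 point per library, in the order activated iKO, activated WT, freshly isolated iKO and freshly isolated WT. Peg3 spans the range from 1.02 FPKM in activated iKO cells to 286 FPKM in freshly isolated iKO cells, H19 is highest in activated WT cells at 98.8 FPKM, and Grb10 stays between 50.8 and 77.8 FPKM.

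Peg3 stood at 1.02 FPKM in activated iKO cells and at 32.1 FPKM in activated WT cells. It stood at 286 FPKM in freshly isolated iKO and at 209 FPKM in freshly isolated WT cells. The activated iKO library was thus far below the other 3, and the order of levels placed both freshly isolated libraries above both activated ones. The log2 ratio, iKO over WT, was −4.03 in activated cells, which is 16.4-fold lower with 1 FPKM added to each value and 31.4-fold lower on the plain FPKM. It was at rank 8 from the lowest of 11215 genes. In freshly isolated cells the log2 ratio was 0.45.

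Zim1, a zinc finger gene made from the maternal copy 9.53 kb from Peg3, had 0.956 FPKM in activated iKO cells and 3.61 FPKM in activated WT cells. The freshly isolated cells had 62.6 FPKM in iKO and 46.5 FPKM in WT. Its order over the 4 libraries was that of Peg3, at lower levels, with log2 ratios of −1.24 in activated and 0.42 in freshly isolated cells. Igf2, Mest, Dlk1 and Usp29 had this order too, with Dlk1 and Usp29 under 1 FPKM in both activated libraries. Usp29, a paternally expressed gene of the ubiquitin protease family that starts beside Peg3, was listed at 0.0273 and 0.0447 FPKM in activated iKO and WT cells and at 0.220 and 0.174 FPKM in freshly isolated iKO and WT cells. It did not reach 1 FPKM anywhere, although its start lies in the region shared with Peg3.

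The other entries of the Peg3 cluster gave little RNA. Peg3os and Zim3 were listed at 0 in every library, and Zim2 was listed at 0 in both activated libraries. The nearest gene above 1 FPKM outside the set was Zfp954, a zinc finger gene 138 kb beyond Usp29 that was picked after its values were seen. It stood at 7.86 FPKM in activated iKO and 5.15 FPKM in activated WT cells, and at 17.3 FPKM in freshly isolated iKO and 16.4 FPKM in freshly isolated WT cells, and so did not share the low level in activated iKO cells.

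H19 is a maternally expressed non-coding RNA abundant in embryonic muscle, and with Grb10 it was 1 of 2 members with their highest level in activated WT cells. It stood at 31.6 FPKM in activated iKO cells and at 98.8 FPKM in activated WT cells. In freshly isolated cells it stood at 20.7 FPKM in iKO and at 10.6 FPKM in WT. The iKO library was the lower of the pair in the activated state (log2 ratio −1.61, 3.06-fold lower) and the higher of the pair when freshly isolated (log2 ratio 0.90, 1.87-fold higher). The activated level was 9.20-fold that of freshly isolated cells in WT and 1.08-fold in iKO, after both libraries were scaled to the same sum.

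Igf2, the growth factor gene made from the paternal copy 72.6 kb from H19, ran the other way between the states. It stood at 2.32 FPKM in activated iKO cells and 4.39 FPKM in activated WT cells, within 2-fold of each other. Freshly isolated iKO cells had 91.6 FPKM and WT cells 54.5 FPKM, a log2 ratio of 0.74. H19 and Igf2 thus had the highest 2 log2 ratios of the members in freshly isolated cells, both within 2-fold. Between them and the next expressed genes, Mrpl23, which encodes a mitochondrial ribosomal protein 34.8 kb away from H19, stood at 110 and 89.9 FPKM in activated iKO and WT cells and at 49.7 and 61.4 FPKM in freshly isolated iKO and WT cells. Nctc1, a non-coding gene between Mrpl23 and H19, was listed at 0 and 0.0684 FPKM in activated iKO and WT cells and at 3.25 and 4.54 FPKM in freshly isolated iKO and WT cells. Both neighbours were named after their values were seen.

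Meg3 and Rian are non-coding RNAs made from the maternal copy of the chromosome 12 cluster. Meg3 had 2.81 FPKM in activated iKO and 2.89 FPKM in activated WT cells, and 307 FPKM in freshly isolated iKO and 415 FPKM in freshly isolated WT cells. The genotypes were close in the activated state at this low level (log2 ratio −0.03), and the states were far apart. Rian, the host of small nucleolar RNAs and miRNAs, had 0.379 FPKM in activated iKO and 3.53 FPKM in activated WT cells, a log2 ratio of −1.71. Its levels when freshly isolated were 124 FPKM in iKO and 179 FPKM in WT. Mirg, the third long RNA of the cluster and one of the other imprinted genes listed, stood at 0.437 and 0.412 FPKM in activated iKO and WT cells and at 23.7 and 38.7 FPKM in freshly isolated iKO and WT cells.

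The 3 maternal RNAs of this cluster were each lower in freshly isolated iKO than WT cells, with log2 ratios of −0.43 for Meg3, −0.53 for Rian and −0.69 for Mirg, all within 2-fold. Dlk1, a paternally expressed transmembrane protein related to Notch ligands, stood at 0.384 and 0.402 FPKM in activated iKO and WT cells and at 4.14 and 3.11 FPKM in freshly isolated iKO and WT cells. Its ratio in freshly isolated cells (0.32) was above 0 where those of the maternal RNAs were below. The paternal Rtl1 and Dio3 stayed under 1 FPKM in every library. Dlk1, the member of the cluster nearest to Yy1, lies 636 kb from Yy1 itself on the same chromosome. Begain, one of the other imprinted genes listed, lies between them.

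Mest, a paternally expressed gene of the hydrolase family, stood at 0.761 FPKM in activated iKO and 3.27 FPKM in activated WT cells, and at 13.6 FPKM in freshly isolated iKO and 12.2 FPKM in freshly isolated WT cells. Copg2, a coatomer subunit listed at the same interval, stood at 11.4 and 10.9 FPKM in activated iKO and WT cells and at 12.6 and 10.6 FPKM in freshly isolated iKO and WT cells, close to level throughout. Grb10, an adaptor that restrains insulin and IGF receptors and is made from the maternal copy in muscle, stood at 51.0 FPKM in activated iKO and 77.8 FPKM in activated WT cells, and at 50.8 FPKM in freshly isolated iKO and 58.3 FPKM in freshly isolated WT cells. Grb10 was the steadiest of the members above 5 FPKM, with all 4 libraries within 2-fold.

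**Figure D2:**
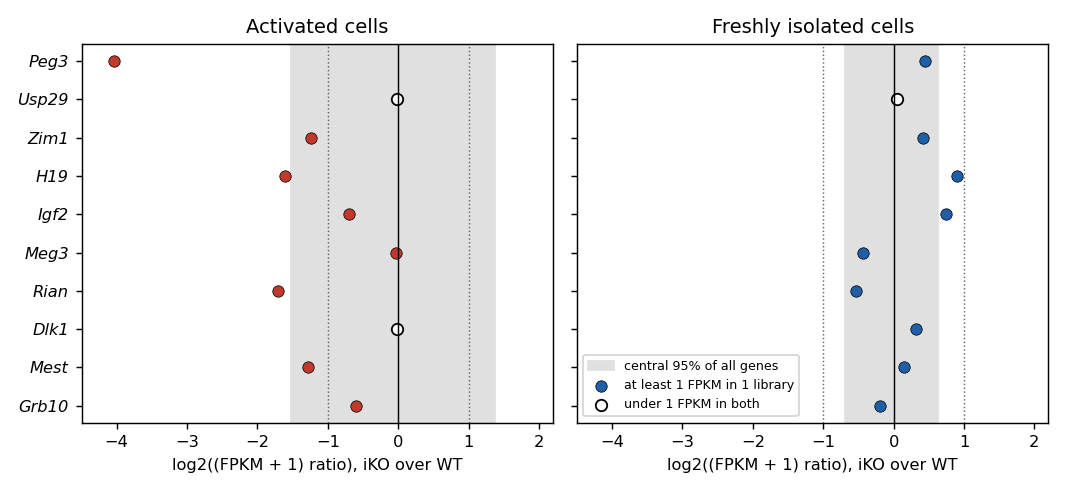
Log2 ratio of FPKM + 1, iKO over WT, for each imprinted gene in activated cells (left) and freshly isolated cells (right), with 1 library per genotype. The grey band holds the central 95% of all genes, dotted lines mark 2-fold, and open circles are members under 1 FPKM in both libraries; Peg3 lies at −4.03 in activated cells and at 0.45 in freshly isolated cells.

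In freshly isolated cells, where Yy1 RNA was at 20.1 FPKM in iKO and 51.0 FPKM in WT, 0 of the 9 members at 1 FPKM or more differed by 2-fold, against 1.40% of 11229 genes differing by 2-fold in either direction (0.721% lower and 0.677% higher). Ratios ran from −0.53 for Rian to 0.90 for H19. In the activated pair Yy1 was at 2.03 FPKM in iKO and 55.2 FPKM in WT. Each of the 4 paternally expressed members at 1 FPKM, namely Peg3, Igf2, Dlk1 and Mest, had a freshly isolated ratio above 0, and the 5 maternally expressed members were split, with 2 above and 3 below 0. Over all genes in freshly isolated cells 50.4% lay below 0. Of 16 other paternally expressed imprinted genes 11 lay above 0 and 5 below, among them Plagl1 at −0.93 and Slc38a4 at −0.57. Of 18 other maternally expressed imprinted genes 6 lay above 0 and 12 below. The expressed copy is the one known for each gene, and the parental origin of the RNA was not measured here. Members were chosen with these values in view, so the split is a description and nothing is read from it.

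Beside the imprinted genes, other measures differed within and between the pairs. In activated cells the log2 ratio moved with the length of the listed locus, with a median of 0.67 in the shortest of 10 equal groups of genes and −0.48 in the longest. H19 belongs to the shortest group, Peg3, Zim1 and Igf2 to group 5 with a median of 0.06, Rian to group 8 with −0.31 and Mest to the longest. Counted from the median of its own group, Mest lay at −0.80 and no longer passed 2-fold, while the other 4 did. Mest was grouped by the interval it shares with Copg2, so its group need not be that of Mest alone. Satellite cell markers were present in every library, with all 8 above 0 and summed levels of 1189 and 1374 FPKM in activated iKO and WT cells and 3101 and 3326 FPKM in freshly isolated iKO and WT cells. Over all 11215 genes in the activated pair, 50.2% had a log2 ratio below 0 and 8.26% were at least 2-fold lower. Of the 8 satellite cell markers, 7 were lower in activated iKO than WT cells and 2 were so by at least 2-fold. These were Pax7, the transcription factor that defines satellite cells, at 6.19 and 28.3 FPKM in activated iKO and WT cells (log2 ratio −2.03), and the adhesion molecule Vcam1 at 27.6 and 62.2 FPKM (log2 ratio −1.14). The myogenic factor Myod1 was the most abundant of the 8 in the activated libraries, at 598 and 698 FPKM in activated iKO and WT cells. Fibroblast markers summed to 19.05 and 40.5 FPKM in activated iKO and WT cells and to 330 and 346 FPKM in freshly isolated iKO and WT cells, with Ly6a the 1 marker of 6 at 0, in activated iKO cells. Endothelial markers summed to 3.18 and 3.09 FPKM in activated iKO and WT cells and to 16.4 and 19.1 FPKM in freshly isolated iKO and WT cells, with none of 6 at 0. Immune markers summed to 15.5 and 4.23 FPKM in activated iKO and WT cells and to 9.12 and 9.90 FPKM in freshly isolated iKO and WT cells, with Ptprc and Csf1r of 6 at 0 in activated iKO cells and Ptprc and Lyz2 at 0 in activated WT cells. The immune sum in activated iKO cells came mostly from Cd14 and Cd68. Cd14 stood at 9.75 and 2.80 FPKM in activated iKO and WT cells, and Cd68 at 5.16 and 1.36 FPKM. Both belong to the shortest length group, whose median was 0.67. The part of these other cell types, or of lower Pax7 and Vcam1, in the imprinted genes' levels was not tested. In such mixed RNA, fewer cells of a type and less RNA per cell cannot be told apart.

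Activation itself was compared within WT, after scaling the libraries to the same sum of FPKM without the most abundant gene. Of the 9 members that could be measured, 7 were at least 2-fold lower and 1, H19, was at least 2-fold higher in activated than freshly isolated WT cells. Over all 11816 genes, 16.3% were at least 2-fold lower and 33.8% at least 2-fold higher. The 2 states sit in separate tables and this comparison shares the activated WT library with the genotype comparison, so it is a description. Meg3 had a log2 ratio of −6.67, 102-fold lower, and was at rank 20 from the lowest. Rian followed at −5.24, Zim1 and Igf2 both at −3.29, Peg3 at −2.58, Mest at −1.56 and Dlk1 at −1.52, while Grb10 lay at 0.50, close to the median of 0.49 over all genes.

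The same comparison in iKO, activated against freshly isolated, gave a log2 ratio of −7.38 for Peg3, at rank 7 from the lowest of 11797 genes. The median of all genes was −0.04 in iKO and 0.49 in WT, so a given ratio is not measured from the same level in both. Rian lay at −6.62, Zim1 at −5.24, Igf2 at −5.13 and Mest at −3.25, and each was lower than in WT by more than those medians differ. The comparison uses the same 4 libraries as the genotype ratios, so apart from scaling it restates them and adds no support. Meg3 lay at −6.69 in iKO and −6.67 in WT, and on the FPKM as deposited at −6.34 in iKO and −6.74 in WT, which turns their order round. In all, 7 members were at least 2-fold lower and 0 were higher, against 27.0% of all genes at least 2-fold lower, 22.8% higher and 49.8% either way.

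**Figure D3:**
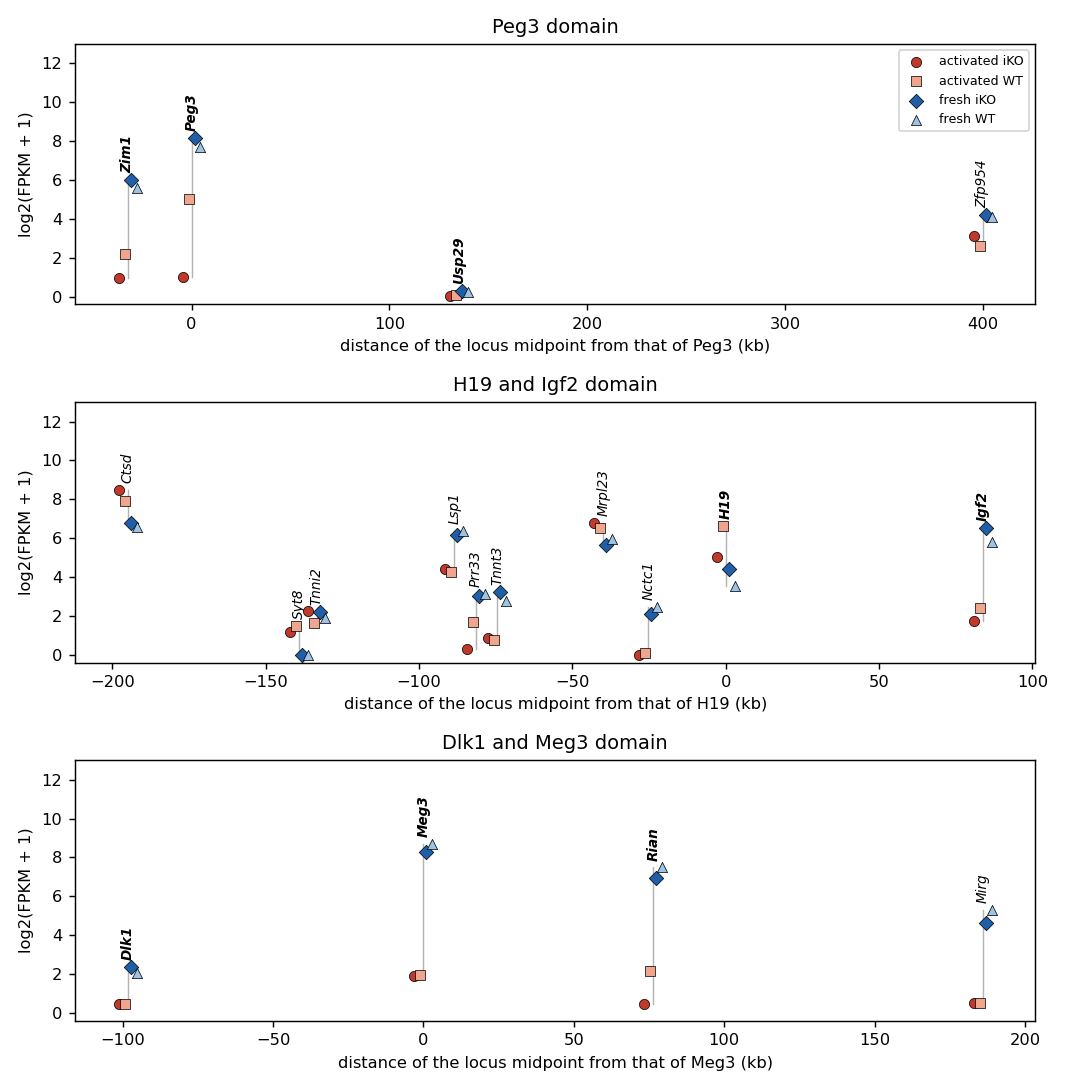
Level of members (bold) and of neighbouring genes with at least 1 FPKM in 1 library, as log2(FPKM + 1), by the distance in kb of the locus midpoint from that of Peg3, H19 or Meg3. Each point is 1 library, points of a gene are spread sideways for legibility and genes that share a locus are set apart. Peg3, Zim1, Usp29, Igf2 and Dlk1 have the same order of the 4 libraries, and Meg3, Rian and Mirg are low in both activated libraries.

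Several members carry miRNAs, and the deposited annotation lists these hairpins at the host's locus. RefSeq places 17 mature miRNAs from 9 hairpins inside 6 of the 10 genes on GRCm38.p6. The mature sequences are shown for the 3 hosts at least 2-fold lower in activated iKO cells that carry any, with the seed (bases 2 to 8) in capitals. The H19 interval holds miR-675, and its strand was not compared with that of H19.
mmu-miR-675-5p: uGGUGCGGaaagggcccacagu
mmu-miR-675-3p: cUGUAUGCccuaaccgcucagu
Rian carries miR-341, miR-370 and miR-1188.
mmu-miR-341-5p: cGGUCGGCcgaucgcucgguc
mmu-miR-341-3p: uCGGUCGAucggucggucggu
mmu-miR-370-5p: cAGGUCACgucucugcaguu
mmu-miR-370-3p: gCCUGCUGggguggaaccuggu
mmu-miR-1188-5p: uGGUGUGAgguugggccagga
mmu-miR-1188-3p: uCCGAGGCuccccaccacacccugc
Mest carries miR-335.
mmu-miR-335-5p: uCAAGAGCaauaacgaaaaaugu
mmu-miR-335-3p: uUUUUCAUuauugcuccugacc
All 17 seeds differ from each other, so these hosts share no seed. All 67 miRNA entries listed within 200 kb of a member were at 0 FPKM in every library that lists them, so the host RNA is the only measure of these loci here, and mature miRNAs were not measured in polyadenylated RNA.

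No YY1 peak lay inside or within 2 kb of any of the 10 loci, where 6.96% of 24312 genes of the activated table had one (95% exact Clopper-Pearson interval 6.64% to 7.28%, counting error only). Counting each shared interval once, 6.13% of 21193 distinct loci had one (5.81% to 6.47%). Distances from the members to the nearest peak ran from 42.3 kb to 1041 kb with a median of 662 kb. The median was 294 kb over the genes of the activated table and 301 kb over distinct loci. Peg3, Zim1 and Usp29 have the same nearest peak, as do Dlk1, Meg3 and Rian, so the 10 distances are not independent. Nearest was H19, whose peak at chromosome 7, 149718998 to 149719127, overlaps the end of the Mrpl23 locus. The same peak is the nearest to Igf2, at 118 kb. It has a deposited fold enrichment of 5.01 and a deposited −log10 q of 1.07, where the medians of the 2031 peaks were 4.12 and 0.246. The peak nearest to Peg3 was 1017 kb away on chromosome 7, at 5641859 to 5641959, with a deposited −log10 q of 0.246. Mest was 239 kb, Dlk1 563 kb, Meg3 651 kb, Grb10 672 kb and Rian 714 kb from a peak. The list was called from 1 library, and a locus without a listed peak is not shown to be unbound. Of the 2031 peaks, 171 had a deposited −log10 q of at least 5, so a locus with a listed peak is not shown to be bound either.

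**Figure D4:**
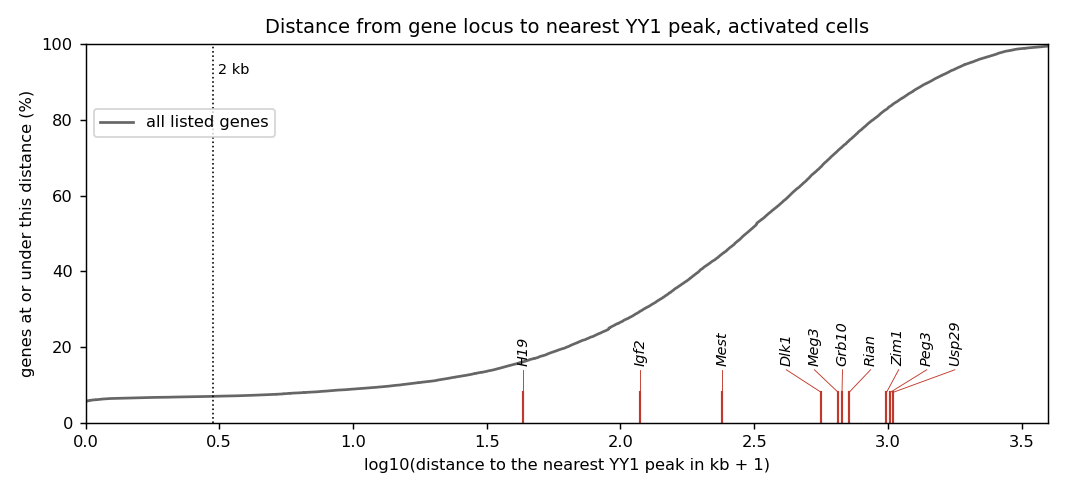
Distance from a gene's locus to the nearest YY1 peak in activated cells, as log10 of the distance in kb plus 1. The grey line gives the share of all listed genes at or under each distance, red ticks mark the 10 imprinted genes, and the dotted line marks 2 kb; H19 is nearest at 42.3 kb and Peg3, Zim1 and Usp29 lie about as far out as each other, at 1017, 986 and 1041 kb.

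A wider list of 61 other imprinted genes was taken from textbook knowledge, and whether each is imprinted in satellite cells was not measured. It had 59 symbols in the activated table, of which 36 passed 1 FPKM. Of these, 3 were at least 2-fold lower and 2 at least 2-fold higher in activated iKO than WT cells. With 0.1 FPKM added in place of 1 the counts were 8 lower and 3 higher, and past 3-fold they were 2 lower and 0 higher. Adding less shrinks the ratios of all low genes less, and no share of all genes is given for these settings. With 1 FPKM added, 17.0% of all genes passed 2-fold in either direction, and the list's median log2 ratio was 0.03 beside −0.00. Slc38a4, an amino acid transporter, stood at 0.820 FPKM in activated iKO and 6.36 FPKM in activated WT cells. Peg10, a gene derived from a retrotransposon, stood at 2.84 and 11.3 FPKM in activated iKO and WT cells. Igf2r, the receptor that clears IGF2, stood at 6.12 and 16.2 FPKM in activated iKO and WT cells, at an interval it shares with the antisense Airn. The log2 ratios of Slc38a4, Peg10 and Igf2r were −2.01, −1.68 and −1.27. Their length groups had medians of −0.31, 0.11 and −0.48.

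The 2 higher genes were Cdkn1c and Commd1, with log2 ratios of 1.37 and 1.04. Their length groups had medians of 0.67 and −0.42. Counted from the median of each length group, 4 other imprinted genes were at least 2-fold lower and 2 higher. These need not be the same genes, and no share of all genes is given for this setting. Cdkn1c, an inhibitor of cyclin-dependent kinases, stood at 3.66 FPKM in activated iKO and 0.803 FPKM in activated WT cells, and at 23.9 and 14.8 FPKM in freshly isolated iKO and WT cells. Commd1, which acts in copper handling and endosomal sorting, stood at 176 and 85.1 FPKM in activated iKO and WT cells, at an interval shared with Zrsr1. Other abundant imprinted genes stayed within 2-fold, among them Gnas (193 and 332 FPKM in activated iKO and WT cells), Cd81 (214 and 178 FPKM) and Nap1l4 (105 and 100 FPKM).

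In freshly isolated cells 1 of 37 other imprinted genes passed 2-fold, a count near the background of 1.40% of all genes (0.721% lower), and 0 were higher by that much. That gene was Tfpi2, a protease inhibitor, at 31.0 FPKM in iKO and 66.0 FPKM in WT. Plagl1, an imprinted zinc finger gene known as a regulator of other imprinted genes, lay just inside the limit at 51.0 and 97.9 FPKM in freshly isolated iKO and WT cells, and stood at 6.15 and 12.5 FPKM in activated iKO and WT cells. In 5 of the 59 genes a YY1 peak lay inside the locus, a share near the 6.96% of all genes with one inside or within 2 kb. They hold 3 distinct peaks, 1 in the interval of Kcnq1 and Kcnq1ot1, 1 in that of Igf2r and Airn, and 1 in Dcn. Their deposited −log10 q were 0.246, 0.938 and 0.329.

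**Figure D5:**
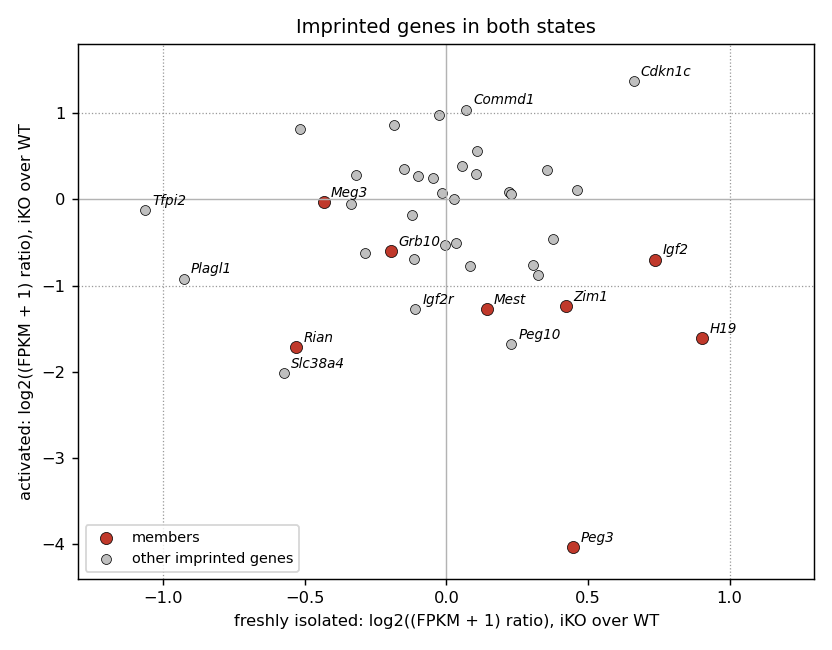
Log2 ratio of FPKM + 1, iKO over WT, in freshly isolated cells (horizontal) and activated cells (vertical) for members (red) and other imprinted genes (grey) with at least 1 FPKM in 1 library of each pair; dotted lines mark 2-fold. Peg3 at −4.03 and Slc38a4 at −2.01 lie lowest in activated cells, and Cdkn1c at 1.37 lies highest. Ratios are not centred on locus length.

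IGF signalling contains 2 of the members and was followed as a list of 15 genes. In activated cells 3 of 12 genes at 1 FPKM or more were at least 2-fold lower in iKO than WT (8.26% of all genes). None were higher by that much (8.74% of all genes), and the median log2 ratio was −0.61 beside −0.00 over all genes. These values were not centred on locus length. The 3 lower genes were Irs1, Irs2 and Igf2r, with log2 ratios of −2.77, −2.32 and −1.27. Their length groups had medians of −0.31, −0.31 and −0.48. Of the adaptors that carry the signal from insulin and IGF receptors, Irs1 stood at 1.22 FPKM in activated iKO and 14.1 FPKM in activated WT cells, and Irs2 at 0.648 and 7.20 FPKM. The receptor Igf1r stood at 5.99 and 12.8 FPKM in activated iKO and WT cells, a log2 ratio of −0.98. In freshly isolated cells 0 of 13 passed 2-fold, where 1.40% of all genes did, with Irs2 at 54.5 FPKM in iKO and 53.3 FPKM in WT. Igf1, the other main ligand, stood at 0.0292 and 0.0387 FPKM in activated iKO and WT cells, and at 7.06 and 5.84 FPKM in freshly isolated iKO and WT cells.

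Profiles were compared with that of Peg3 over the 4 libraries, by the Euclidean distance between log2(FPKM + 1) values centred on each gene's mean, among 9272 genes with at least 5 FPKM in 1 library. The 5 nearest were Irs2, Arid5b, Flnc, Dot1l and Zbed6, at distances from 1.61 to 1.95. Irs2, named above, came first. Arid5b, which encodes a chromatin-associated protein, stood at 0.783 and 5.63 FPKM in activated iKO and WT cells and at 138 and 159 FPKM in freshly isolated iKO and WT cells. Flnc, a filamin of muscle, stood at 15.4 and 54.2 FPKM in activated iKO and WT cells and at 621 and 751 FPKM in freshly isolated iKO and WT cells. Dot1l, a histone methyltransferase, stood at 3.37 and 17.7 FPKM in activated iKO and WT cells and at 115 and 120 FPKM in freshly isolated iKO and WT cells. Zbed6, a zinc finger gene known to repress Igf2 in muscle, stood at 0.185 and 15.4 FPKM in activated iKO and WT cells and at 34.0 and 33.9 FPKM in freshly isolated iKO and WT cells, at an interval it shares with another symbol. Unlike Peg3, Dot1l and Zbed6 have a listed YY1 peak inside the locus, where 6.96% of genes of the activated table had one inside or within 2 kb. Irs2, Arid5b and Flnc lay 944, 520 and 132 kb from a peak. Most listed peaks have weak deposited q values, and a link between binding and these profiles was not tested. Among the members, Rian was at rank 9, Zim1 at rank 13, Igf2 at rank 39, Mest at rank 276 and Meg3 at rank 331 of the same order. Grb10 and H19 were at ranks 3438 and 6832. The members were chosen with the values of these same 4 libraries in view, so their ranks are a description and nothing is read from them.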

How the data were processed

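RNA of 4 satellite cell libraries and 1 peak list were used. The authors deposited FPKM values per gene, per the file headers, in 1 table for each state. The deposited peak list gives, for each peak, a score, a fold enrichment over the local background, and −log10 values of p and q by the authors' peak caller. Per the submitters' processing notes, MACS2 2.1.0, Cufflinks 2.2.1 and TopHat2 were used, and mm9 is the build; the notes give no roles. Filters, annotation, strand and scaling are not stated.

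Ratios were log2((FPKM + 1)/(FPKM + 1)), for genes with at least 1 FPKM in either library. Adding 1 shrinks the ratios of low genes, and 2-fold on that scale is a rule of size. Absolute depth is unknown. Low values (at most 0.3 FPKM) gave a relative depth, iKO over WT, of 0.664 in the activated pair, shared within 0.005 by 14.2% of 1573 genes. The freshly isolated pair gave 1.00, shared by 22.6% of 1542 genes. In the activated iKO library Mir762 alone held 39.8% of the FPKM sum. Deposited starts count from 0 and are given here from 1, as checked on the length of H19 (2617 bases) and Meg3 in RefSeq. Members and gene lists were chosen with earlier results of these data known. Named genes are the members, list genes with at least 5 FPKM in 1 library, neighbours of Peg3 at 1 FPKM or more, and the 5 profiles nearest to Peg3. Others (Zfp954, Mrpl23, Nctc1, single markers, and Rtl1, Dio3, Zim2, Zim3 and further genes under 5 FPKM or sharing a locus) were chosen after their values were seen. Ratio and distance code was tested on simulated data. Python 3.11.15, pandas 2.3.3 and scipy 1.17.1 were used.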

Additional observations from a re-analysis of the deposited data

Results flagged for a closer look

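In 4 members the genotype ratio had opposite signs in the 2 states, with at least one state past 2-fold. The differences, activated minus freshly isolated log2 ratio, were −4.48 for Peg3, −2.52 for H19, −1.66 for Zim1 and −1.42 for Mest. Each rests on 1 library per group, so the difference between the states was not tested.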

How the results depend on the processing

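Among the values of single members at 1 FPKM or more, 104 of 105 under another pseudocount, scaling or centring stayed on the same side of 2-fold, and 0 of those past 2-fold changed sign. A filter cannot move a gene's own ratio and is left out of that tally. The exception was Mest in activated cells, at −0.80 when centred on genes of like locus length, under which 4 members passed in place of 5. The length used for Mest is that of the interval it shares with Copg2. Requiring 5 FPKM left 2 members at least 2-fold lower, since fewer genes are then tested, and a 3-fold rule left 3. For the other imprinted genes, a pseudocount of 0.1 FPKM gave 11 (8 lower and 3 higher) in place of 5, and the 3-fold rule gave 2. Centring on locus length gave 6 (4 lower and 2 higher), which need not be the same genes. No share of all genes is given at these settings of filter, fold, pseudocount and centring, so the counts are a description. With upper-quartile scaling the all-gene median in activated cells shifted by −0.12, with 653 higher and 1199 lower genes in place of 980 and 926, and with 4 lower and 1 higher other imprinted genes. It moved the median of WT activation by −0.40 without changing the members' counts of 7 and 1. A window of 50 kb gave 1 member with a YY1 peak, H19, and no share of all genes is given for that window. No paired analysis was possible because each group has 1 library. Depth limits the values under 1 FPKM most.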

Other observations

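The genes that maintain imprints were followed as a list of 17, of which 14 reached 1 FPKM in activated cells. There, 3 were at least 2-fold lower in iKO than WT and 0 were higher, where 8.26% of all genes were lower and 8.74% higher. The median log2 ratio was −0.58 beside −0.00 over all genes. These values were not centred on locus length. The 3 lower genes were Dnmt1, Hells and Tet2, with log2 ratios of −1.42, −1.08 and −1.11. Their length groups had medians of −0.31, −0.17 and −0.42. Dnmt1, the maintenance DNA methyltransferase, stood at 27.5 FPKM in activated iKO and 75.2 FPKM in activated WT cells, and at 11.5 and 13.4 FPKM in freshly isolated iKO and WT cells. Hells, a chromatin remodeller needed for DNA methylation, stood at 20.6 and 44.7 FPKM in activated iKO and WT cells. Tet2, which oxidises methylated cytosine, stood at 0.454 and 2.14 FPKM in activated iKO and WT cells, and at 16.3 and 18.4 FPKM in freshly isolated iKO and WT cells. Uhrf1, which brings Dnmt1 to replicated DNA, stood at 43.2 and 73.3 FPKM in activated iKO and WT cells, within 2-fold.

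Zfp57, a zinc finger protein that guards imprinted methylation in mouse embryos, was the 1 gene of 13 on the list to pass 2-fold in freshly isolated cells, where 1.40% of all genes did, at 0.760 FPKM in iKO and 2.67 FPKM in WT. In activated cells it stood at 7.97 and 8.28 FPKM in iKO and WT. Its partner Trim28 stood at 208 and 182 FPKM in activated iKO and WT cells. Methylation itself was not measured in these data, nor was the parental copy from which the RNA came.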
